A study of Homo sapiens with 6 samples.

Results

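Integrin-linked adhesion and the hyaluronan receptor CD44 were followed through 10 genes chosen by name from a table of 61852 genes: ITGB1, ITGA5, ITGAV, ITGA6, TLN1, ILK, PTK2, PXN, ZYX and CD44. Integrins are heterodimeric receptors of an alpha and a beta subunit that bind extracellular matrix outside the cell. Inside it, talin binds the beta tail and actin, and integrin-linked kinase, focal adhesion kinase, paxillin and zyxin assemble around that link. CD44 binds hyaluronan, and its tail is coupled to actin by ezrin, radixin and moesin. In megakaryocytes and platelets, the fibrinogen receptor made of ITGA2B and ITGB3 is the best known of the family, and ITGA5 with ITGB1 forms a fibronectin receptor.

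The libraries were poly(A)-selected, paired-end RNA-seq of MEG-01, an established megakaryoblastic cell line from a patient with chronic myeloid leukaemia. MELK knockdown cells carried 1 short hairpin against MELK (sh2-MELK; 3 libraries), and control cells carried the pLKO.1 vector (3 libraries); both had been transduced. A single hairpin was used, so effects of MELK loss and of that hairpin on other transcripts cannot be told apart. The series' design text calls the 3 libraries of a group biological replicates, the sample labels name no separate cultures, and all 6 carry the same batch label, F5, so the comparison lies within it. Each p-value therefore rests on library-to-library spread, part of which may be technical.

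MELK, the kinase that the hairpin targets, had 16, 124 and 26 counts in knockdown libraries, against 219, 206 and 238 counts in control libraries. The groups did not overlap, and the log2 fold change was -1.98 with an adjusted p of 0.104 (edgeR quasi-likelihood test, Benjamini-Hochberg over all genes tested, threshold 0.05). Without knockdown replicate 2, it was -3.33 with an adjusted p of 0.00286, and without each of the other libraries it did not pass, with log2 fold changes as small as -1.59 and adjusted p up to 0.319. Library totals ran from 18945176 to 21711313 counts. In 35797 genes (57.9%) each of the 6 values was 0, 1, 2, 10 or 100. It was as though a number drawn from these, with a SD of 38.9, had been added to each count. Such a number would weigh most on genes with few counts, such as MELK, ITGA6 and ITGAV, and less as counts rise. Of 17 megakaryoblast markers, 8 averaged 500 counts or more (GATA1, ITGA2B, ITGB3, NFE2, FLI1, TAL1, GP6 and RUNX1), and the summed level of all 17 was 2857 to 2940 CPM (counts scaled to library size by the trimmed mean of M values, TMM) in knockdown libraries and 3411 to 3533 CPM in control libraries. Of the 17, 5 were called higher (FLI1, TAL1, GP6, RUNX1 and CD9) and 5 lower (GATA1, ITGA2B, ITGB3, NFE2 and GP1BA), and most of the sum was ITGA2B, at 1061 CPM in knockdown and 2024 CPM in control libraries, and TAL1, at 1041 CPM in knockdown and 568 CPM in control libraries. The platelet chemokine PF4 held only the added values. None of 10 fibroblast and stromal markers averaged 500 counts, and their summed level was 13.3 to 31.1 CPM in knockdown and 8.43 to 14.2 CPM in control libraries, the added numbers included. The summed level of 8 endothelial markers was 189 to 200 CPM in knockdown and 171 to 182 CPM in control libraries, most of it TIE1, that of 8 epithelial markers 94.0 to 110 and 76.3 to 82.1 CPM, most of it KRT18, and that of 8 lymphocyte markers 8.42 to 17.8 and 2.89 to 13.7 CPM. The part of these lists in the results was not tested. In bulk RNA, a change in the share of cells that carry a transcript and a change in its amount per cell cannot be told apart.

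CD44, ITGA5, PXN, ILK, ITGB1 and ITGAV were higher and TLN1 was lower in knockdown cells, while ZYX, PTK2 and ITGA6 did not pass the threshold. CD44 stood at 2.15-fold, ITGA5 at 1.79-fold and PXN at 1.78-fold of control. All 10 genes passed the filter on low counts. Of 28303 genes tested, 16.5% were called in either direction, 8.12% higher and 8.43% lower. Genes with more counts were called more often. Among the 5038 genes that averaged 500 counts or more, called well-counted genes from here on, 68.0% were called, 32.5% higher and 35.5% lower. Of the 8 genes of the set that are well counted, 5 were higher, 1 was lower and 2 did not pass, so the share called lay near its background. Knockdown and control libraries did not overlap in CPM for 9 of the 10 genes, 7 higher and 2 lower, and for all 8 of the well-counted ones, against 30.7% of all genes tested and 79.2% of the well-counted genes. The median log2 fold change of the 10 genes was 0.63, beside 0.02 over all genes tested, and that of the 8 was 0.41, beside -0.02 over the well-counted genes. The median size of a change among well-counted genes, whatever its direction, was 0.35 on the log2 scale.

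**Figure D1:**
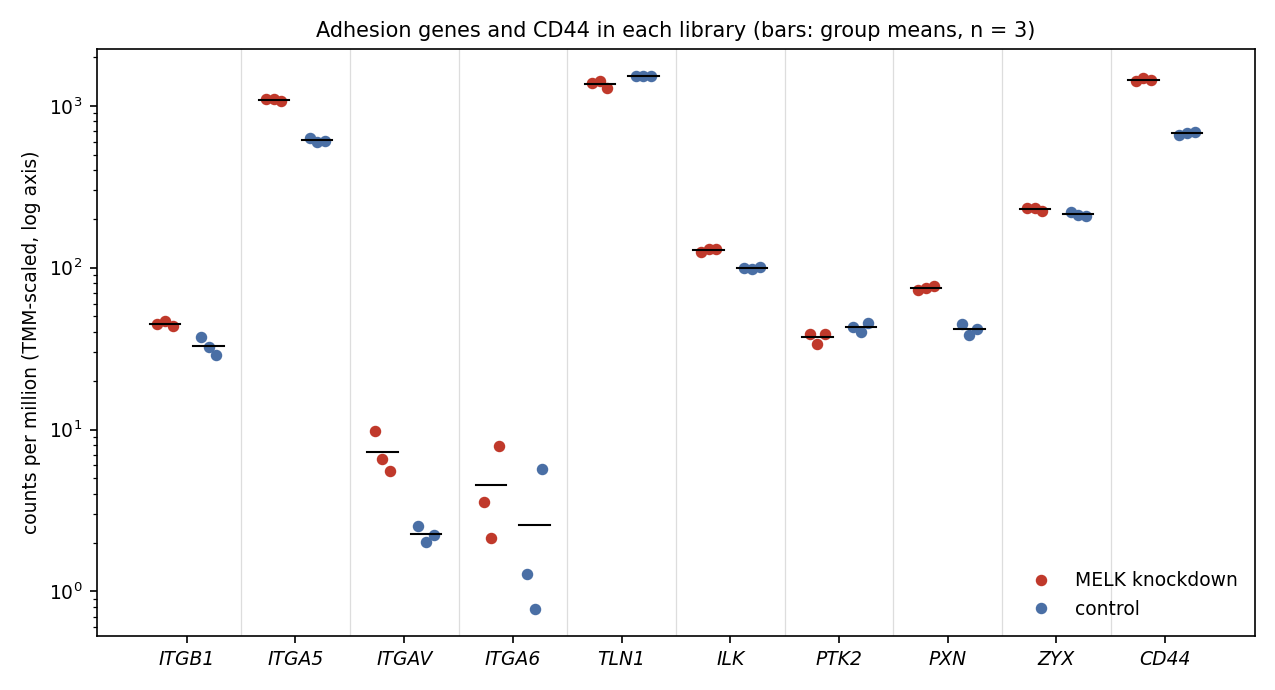
Level of each gene in each library, in TMM-scaled CPM on a log axis, with MELK knockdown libraries (red) left of control libraries (blue) and a bar at each group mean (n = 3). The knockdown points lie above the control points for CD44, ITGA5, PXN, ILK, ITGB1, ITGAV and ZYX, below them for TLN1 and PTK2, and among them for ITGA6.

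ITGB1 encodes the beta subunit shared by the largest group of matrix-binding integrins (chromosome 10, 32900319 to 33005792, minus strand, GRCh38). It had 889, 938 and 819 counts in knockdown libraries, against 764, 627 and 596 counts in control libraries. Its level was 45.04 ± 1.61 CPM in knockdown and 33.0 ± 4.19 CPM in control libraries (SD, n = 3 each). Every knockdown library lay above every control library. This gave a log2 fold change of 0.45, with a SE of 0.09 and an adjusted p of 0.0112 (edgeR, Benjamini-Hochberg). The call was lost without knockdown replicate 1, knockdown replicate 2 or control replicate 2, with adjusted p of 0.091, 0.0611 and 0.0806 in fits that tested more genes, and it held in all 6 such fits on well-counted genes only, with adjusted p of 3.76e-05 to 0.00332. Over 5031 well-counted genes, the log2 fold change was lower at a higher GC content of the transcript, with a Spearman rho of -0.393 across genes, which are not independent replicates, and the ITGB1 transcript is 39.98% GC. After a correction for GC content and transcript length within each library, the log2 fold change of ITGB1 was 0.05 with an adjusted p of 0.691 (edgeR).

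ITGA5 encodes the alpha subunit that pairs with ITGB1 to bind the RGD site of fibronectin (chromosome 12, 54395261 to 54419460, minus strand). It had 21818, 22323 and 20084 counts in knockdown libraries, against 12888, 11434 and 12447 counts in control libraries. Its level was 1094 ± 25.4 CPM in knockdown and 610.7 ± 19.1 CPM in control libraries (SD, n = 3 each), and the groups were far apart relative to the spread within either. The log2 fold change was 0.84 with a SE of 0.03 and an adjusted p of 8.60e-07 (edgeR, Benjamini-Hochberg). Of the well-counted genes, 6.43% had a higher log2 fold change. The promoter windows of ITGA5 and CD44 are printed because these were the 2 most abundant transcripts among the genes that rose. Both are RefSeq windows on GRCh38.p14, from 250 bases before to 50 after the annotated transcript start. The ITGA5 window is chr12:54419217-54419516 on the minus strand, and the CD44 window is chr11:35138921-35139220 on the plus strand. Capitals mark matches on either strand to a GC box (GGGCGG), to the AP-1 element (TGANTCA) and to the TEAD element (GGAATG), and no marked matches overlap.
ITGA5: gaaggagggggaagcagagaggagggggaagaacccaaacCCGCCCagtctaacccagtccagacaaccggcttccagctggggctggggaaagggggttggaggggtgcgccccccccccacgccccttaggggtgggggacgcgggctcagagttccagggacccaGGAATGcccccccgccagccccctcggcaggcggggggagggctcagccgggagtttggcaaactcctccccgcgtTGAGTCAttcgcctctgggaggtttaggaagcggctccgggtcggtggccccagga
CD44: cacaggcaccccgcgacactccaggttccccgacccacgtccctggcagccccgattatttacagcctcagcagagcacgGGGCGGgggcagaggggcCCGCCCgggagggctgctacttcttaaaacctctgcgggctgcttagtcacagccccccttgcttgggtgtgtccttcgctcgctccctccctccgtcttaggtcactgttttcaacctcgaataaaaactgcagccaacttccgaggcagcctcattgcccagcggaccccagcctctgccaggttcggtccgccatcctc
In the ITGA5 window, the AP-1 letters begin 6 bases, the TEAD letters 82 bases and the GC box 210 bases before the transcript start. The CD44 window holds the GC box at 170 and 152 bases before the start, and the letters of the AP-1 and TEAD elements are not in it. These distances are to the RefSeq starts. In the GENCODE annotation both genes begin further upstream, CD44 at 35138870 and ITGA5 at 54419460. The CD44 window therefore lies inside the GENCODE gene, as do the AP-1 and TEAD letters of ITGA5. Over 35114 promoter windows, 44.95% held a GC box, 7.71% the AP-1 letters and 14.03% the TEAD letters. Of the 13 windows of the 9 genes other than PTK2, 9 held a GC box, 1 the AP-1 letters (ITGA5) and 3 the TEAD letters (ITGA5, ITGB1 and PXN). The CArG box, the element bound by serum response factor, was in 1.29% of all windows and in 0 of the 13. These are matches of letters and say nothing about occupancy.

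ITGAV encodes the alpha subunit of vitronectin receptors (chromosome 2, 186590065 to 186680901, plus strand). It had 193, 133 and 104 counts in knockdown libraries, against 52, 39 and 46 counts in control libraries, and the groups did not overlap. Its level was 7.30 ± 2.22 CPM in knockdown and 2.27 ± 0.26 CPM in control libraries (SD, n = 3 each). The log2 fold change of 1.68 had a SE of 0.47 and an adjusted p of 0.0444 (edgeR, Benjamini-Hochberg). Leaving out any 1 of the 6 libraries ended the call, with log2 fold changes of 1.36 to 1.81 and adjusted p of 0.192 to 0.528 in fits that tested more genes. It also ended with limma-voom, with no filter and with a dispersion estimate that is not robust, at adjusted p of 0.108, 0.332 and 0.0662. When each value was modelled as reads plus the added number, the estimate was 108.5 reads per library in knockdown and 42.3 in control, and the log2 fold change was 1.36 (95% interval 1.03 to 1.73). The model gives ITGAV a dispersion estimated on well-counted genes, so this interval may be too narrow.

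ITGA6 encodes the alpha subunit of laminin receptors (chromosome 2, 172427354 to 172506282, plus strand). It had 70, 43 and 150 counts in knockdown libraries, against 26, 15 and 117 counts in control libraries, and the groups overlapped. The log2 fold change of 0.81 had a SE of 1.05 and an adjusted p of 0.792 (edgeR, Benjamini-Hochberg). The highest library of each group, knockdown replicate 3 and control replicate 3, lies well above the others of its group, and 100 is 1 of the added values. With the added number modelled, the estimate was 52.2 reads per library (95% interval 43.8 to 61.8) in knockdown and 16.4 (11.7 to 22.7) in control. The modelled log2 fold change was 1.67 (95% interval 1.13 to 2.22). That model uses the same dispersion for each gene, so its intervals may be too narrow.

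Set against the other integrin subunits, ITGA5 and ITGB1 took a larger share in each knockdown library than in any control library. Levels were compared as CPM per kilobase of transcript, with no correction for GC content. The transcripts of ITGB1, ITGB2 and ITGB7 are 39.98%, 59.1% and 59.4% GC, and corrected for GC and length, ITGB1 had a log2 fold change of 0.05. Whether that correction would alter the shares and ratios was not tested. ITGA5 made up 42.9%, 42.3% and 41.8% of the summed alpha subunits in knockdown libraries, against 17.6%, 17.5% and 17.6% in control libraries. ITGA2B, the platelet alpha subunit, made up 54.8 ± 0.50% in knockdown and 77.5 ± 0.29% in control libraries (SD, n = 3 each), and its own level was lower, at 1061 CPM in knockdown and 2024 CPM in control libraries, with a log2 fold change of -0.93. ITGB1 made up 32.2 ± 1.13% of the summed beta subunits in knockdown and 13.6 ± 1.53% in control libraries (SD, n = 3 each). The ratio of ITGA5 to ITGB1 was 20.9, 20.3 and 20.9 in knockdown libraries, against 14.4, 15.5 and 17.8 in control libraries, so both groups held far more transcript per kilobase of the alpha than of the beta subunit. For each of 10 ratios and shares the groups did not overlap, and the exact 2-sided permutation p was 0.1, also after Benjamini-Hochberg adjustment, the smallest that 3 libraries against 3 allow.

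**Figure D2:**
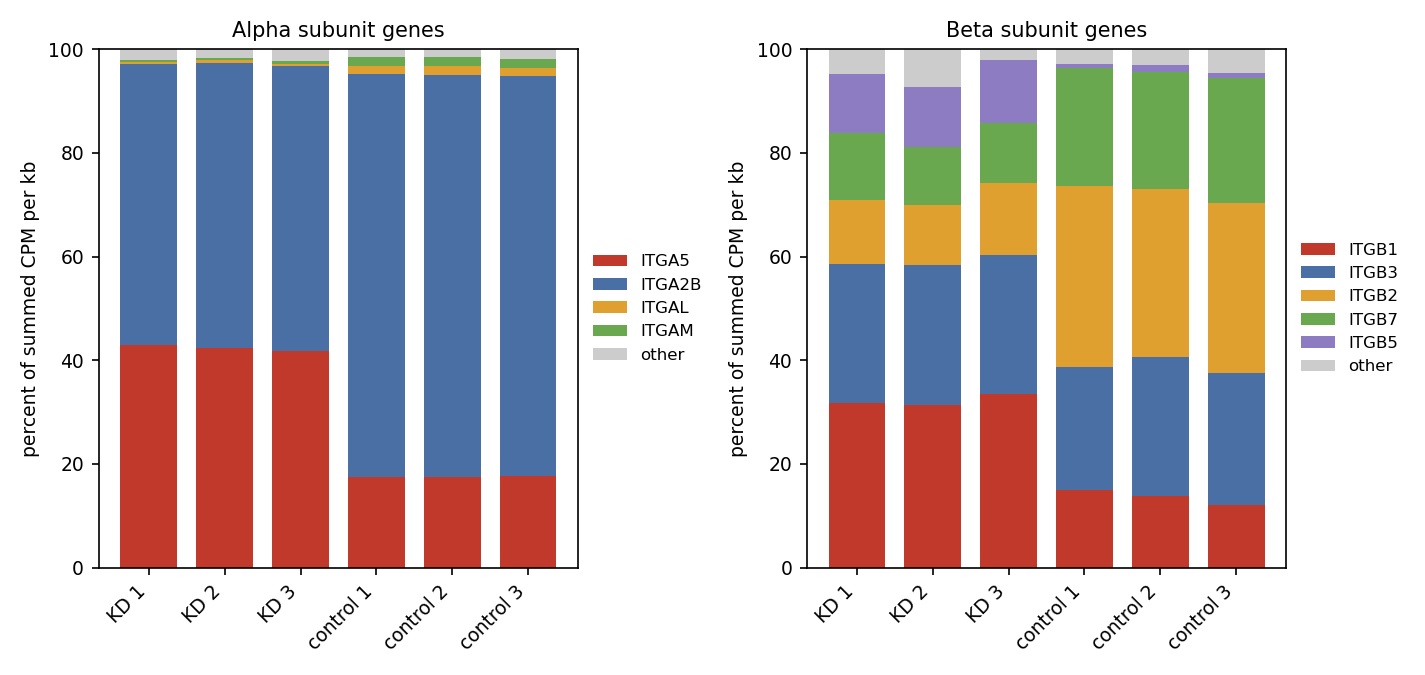
Share of each integrin subunit in the summed alpha (left) and beta (right) subunit level, in percent of summed CPM per kilobase, 1 stacked bar per library, with knockdown libraries (KD) left of control libraries. ITGA5 takes 41.8% to 42.9% of the alpha level in knockdown and 17.5% to 17.6% in control libraries.

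Of the 18 other integrin subunits tested, 2 were higher, 7 were lower and 9 did not pass, beside 8.12% higher and 8.43% lower over all genes tested. The 6 well-counted ones were each lower, with a median log2 fold change of -1.97, beside 35.5% lower over all well-counted genes. Their transcripts are 52.3% to 61.1% GC, and these values are without the GC and length correction. The leukocyte subunits ITGAM, ITGAL and ITGB2 fell by 2.48, 2.19 and 2.20 on the log2 scale, and ITGB7, a partner of ITGA4 and ITGAE, fell by 1.75. ITGB3, the beta subunit that pairs with ITGA2B and with ITGAV, had a log2 fold change of -0.70, and ITGA4, which pairs with ITGB1, had one of -0.96. ITGB5, another partner of ITGAV, was 2.72 higher on the log2 scale, at 18.9 CPM in knockdown and 2.86 CPM in control libraries. Its control counts were 46, 77 and 48, within the range of the added numbers. ITGA9, the other subunit called higher, had a log2 fold change of 1.41 (edgeR, adjusted p 0.0347). ITGA4 and ITGA9 averaged 293 and 105 counts, so neither is well counted.

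TLN1 encodes talin, which couples integrin tails to actin and switches integrins to high affinity (chromosome 9, 35696948 to 35732395, minus strand). It had 27198, 28534 and 24444 counts in knockdown libraries, against 31232, 29399 and 31299 counts in control libraries. Its level was 1364 ± 62.7 CPM in knockdown and 1528 ± 1.88 CPM in control libraries (SD, n = 3 each), and each knockdown library was lower than all control libraries. Between the groups, the log2 fold change was -0.16 with a SE of 0.03 and an adjusted p of 0.0109 (edgeR, Benjamini-Hochberg). The call did not hold with library size as the only scaling (-0.09, adjusted p 0.108), nor without knockdown replicate 3, control replicate 1 or control replicate 3 in fits that tested more genes (adjusted p 0.0548, 0.224 and 0.235). On well-counted genes only, it held with each of the 6 libraries left out (adjusted p 0.000746 to 0.00522). With the GC and length trend removed the direction turned, to 0.014 with an adjusted p of 0.655 (edgeR).

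The genes that switch integrins on or off moved in both directions. Of 16 tested, 5 were higher, 6 were lower and 5 did not pass. Of the 13 well-counted ones, 5 were higher and 5 lower, beside 32.5% higher and 35.5% lower over all well-counted genes. FERMT3, the blood-cell kindlin that acts with talin, had a log2 fold change of -0.14 (adjusted p 0.00833). RASGRP2, the exchange factor for RAP1, fell by 1.69 and APBB1IP, the RAP1 effector that brings talin to the membrane, fell by 1.07 on the log2 scale. RAP1B itself rose by 0.97 and DAB2, an adaptor that binds integrin tails, by 0.94 (all with adjusted p below the threshold in edgeR). The transcripts of RASGRP2 and APBB1IP are 63.9% and 53.1% GC, and those of RAP1B and DAB2 37.9% and 45.6%. The log2 fold changes here are without the GC and length correction.

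ILK encodes integrin-linked kinase, the pseudokinase that joins beta subunit tails to PINCH and parvin (chromosome 11, 6603708 to 6610874, plus strand). It had 2453, 2628 and 2450 counts in knockdown libraries, against 2029, 1893 and 2083 counts in control libraries, with no overlap. The levels of 128.3 CPM in knockdown and 99.8 CPM in control libraries gave a log2 fold change of 0.36 with a SE of 0.04 and an adjusted p of 0.000148 (edgeR, Benjamini-Hochberg). ILK and TAF10 share 2374 exon bases on opposite strands, and no source used here gives the strand setting of the counting, so reads from their overlap cannot be told apart. TAF10 itself had 116 to 130 counts in knockdown and 81 to 117 in control libraries.

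The partners of ILK did not move as one. Of 6 tested, 1 was higher, 1 was lower and 4 did not pass. Only 4 of the 6 were well counted, and of these 1 was higher, 1 was lower and 2 did not pass, beside 32.5% higher and 35.5% lower over all well-counted genes. RSU1, which binds PINCH, was 0.40 higher on the log2 scale, and PARVB, a parvin, was 0.82 lower. LIMS1, which encodes PINCH, had a log2 fold change of 0.13 with an adjusted p of 0.372 (edgeR, Benjamini-Hochberg), PARVA one of 1.10 (0.737) and PARVG one of -1.47 (0.477).

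**Figure D3:**
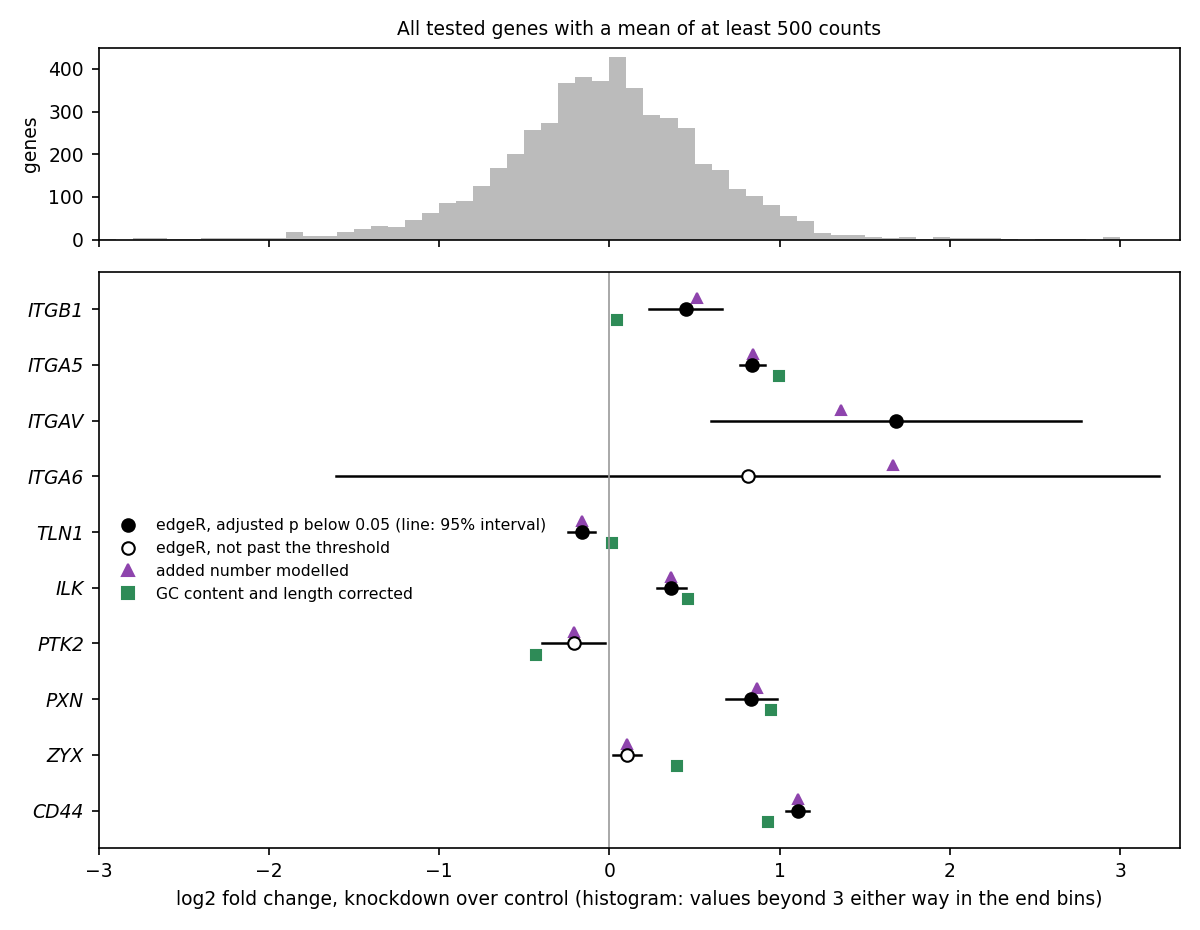
Upper panel, number of genes by log2 fold change for the well-counted genes (mean of 500 or more). Lower panel, log2 fold change of knockdown over control for each of the 10 genes (circles, edgeR, with 95% intervals; filled where the adjusted p is below 0.05), beside the estimate with the added number modelled (triangles) and with GC content and length corrected (squares); CD44, ITGA5, PXN and ILK lie right of 0 by each method, and ITGB1 and TLN1 move to 0.05 and 0.014 when corrected.

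PTK2 encodes focal adhesion kinase, which docks at clustered integrins and recruits SRC. It had 763, 678 and 733 counts in knockdown libraries, against 881, 768 and 935 counts in control libraries. Its CPM was lower in each knockdown library than in any control library, at means of 37.1 CPM in knockdown and 42.9 CPM in control libraries, but the log2 fold change of -0.21 had a SE of 0.08 and an adjusted p of 0.146 (edgeR, Benjamini-Hochberg). With the GC and length trend removed it was -0.43 with an adjusted p of 0.000281 (edgeR). Without control replicate 2, among well-counted genes only, it was -0.23 with an adjusted p of 0.0452 (edgeR).

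PXN encodes paxillin, the LIM-domain scaffold that focal adhesion kinase and SRC phosphorylate (chromosome 12, 120210439 to 120265771, minus strand). It had 1428, 1498 and 1444 counts in knockdown libraries, against 919, 737 and 861 counts in control libraries. The levels were 74.5 ± 2.03 CPM in knockdown and 41.8 ± 3.38 CPM in control libraries (SD, n = 3 each), far apart relative to the spread within either group. Its log2 fold change was 0.83 with a SE of 0.06 and an adjusted p of 4.01e-05 (edgeR, Benjamini-Hochberg), and 6.63% of well-counted genes had a higher one. The antisense gene PXN-AS1, which shares 918 exon bases with PXN, had 112, 146 and 122 counts in knockdown and 173, 131 and 269 counts in control libraries, and without strand its reads and those of PXN cannot be told apart.

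Among kinases and adaptors around PTK2 and PXN, 6 of 23 tested were higher, 8 were lower and 9 did not pass. Well counted were 15 of them, with 3 higher and 7 lower, beside 32.5% higher and 35.5% lower over all well-counted genes. BCAR1, the scaffold phosphorylated by SRC and focal adhesion kinase, rose by 1.02 on the log2 scale. SRC fell by 0.69, the kinase PAK2 by 2.12 and ASAP1, an ARF GTPase-activating protein that binds focal adhesion kinase, by 0.97. PTK2B, the close relative of PTK2, had a log2 fold change of -0.11 with an adjusted p of 0.355 (edgeR, Benjamini-Hochberg), and LPXN, a paxillin relative of blood cells, had one of 0.32 (0.597).

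ZYX encodes zyxin, a LIM-domain protein that brings Ena/VASP proteins to tensed actin (chromosome 7, 143381080 to 143391111, plus strand). It had 4576, 4727 and 4203 counts in knockdown libraries, against 4519, 4066 and 4301 counts in control libraries. The means were 229.9 CPM in knockdown and 214.1 CPM in control libraries, with no overlap by library. The log2 fold change of 0.10 had a SE of 0.04 and an adjusted p of 0.107 (edgeR, Benjamini-Hochberg). It passed when the fit held only the well-counted genes (0.12, adjusted p 0.00784) and with library size as the only scaling (0.18, 0.00965). It also passed with the GC and length trend removed (0.40, adjusted p 5.3e-09, edgeR).

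Of 17 genes tested for actin-linking and scaffold proteins, 3 were higher, 7 were lower and 7 did not pass. Well counted were 11 of them, with 3 higher and 7 lower, beside 32.5% higher and 35.5% lower over all well-counted genes. VCL, vinculin, which binds talin under force, rose by 1.17 on the log2 scale, and PPFIBP1, a liprin, by 1.52. EVL, an Ena/VASP protein, fell by 0.73 and TNS4, a tensin, by 1.93. Of 15 LIM-domain relatives of zyxin and paxillin, 1 was higher, 5 were lower and 9 did not pass. The called ones were all among the 7 well counted, to which the same background shares apply. PDLIM5 rose by 1.08, and PDLIM7, LIMD1 and FHL3 fell by 1.60, 0.83 and 0.48.

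CD44 encodes the hyaluronan receptor (chromosome 11, 35138870 to 35232402, plus strand). It had 28145, 29687 and 27424 counts in knockdown libraries, against 13394, 13039 and 14187 counts in control libraries. The levels were 1452 ± 23.5 CPM in knockdown and 675.1 ± 18.1 CPM in control libraries (SD, n = 3 each), and each knockdown library held more than any control library by far. The log2 fold change of 1.11 had a SE of 0.03 and an adjusted p of 1.70e-07 (edgeR, Benjamini-Hochberg), and 2.48% of well-counted genes had a higher one. The antisense gene CD44-AS1, which shares 84 exon bases with CD44, had 290, 302 and 313 counts in knockdown and 112, 96 and 133 counts in control libraries, and without strand the reads of the overlap cannot be told apart. Counts per gene do not separate the standard from the variant isoforms of CD44.

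The genes around CD44 were mixed. Of 17 tested, 3 were higher, 2 were lower and 12 did not pass. Of the 6 well-counted ones, 2 were higher and 2 lower, beside 32.5% higher and 35.5% lower over all well-counted genes. MSN, moesin, which couples the CD44 tail to actin, rose by 0.69 on the log2 scale and reached 2193 CPM in knockdown against 1356 CPM in control libraries. EZR, ezrin, had a log2 fold change of -0.08 with an adjusted p of 0.372 (edgeR, Benjamini-Hochberg), and RDX, radixin, had one of 0.84 (0.192). SRGN, serglycin, a granule proteoglycan, rose by 1.17, CD74, a partner of CD44 in signalling by the cytokine MIF, fell by 2.24 and HYAL3, of the hyaluronidase family, fell by 0.92.

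The remaining lists of adhesion genes also held calls in both directions. Of 19 extracellular ligands tested, 4 were higher, 3 were lower and 12 did not pass, beside 8.12% higher and 8.43% lower over all genes tested. Only 4 of the 19 were well counted, 1 higher and 3 lower. LAMC1, a laminin chain, rose by 0.55, while LAMA5, another laminin chain, fell by 0.81, TGFB1, whose latent form binds ITGAV integrins, by 0.85 and MFGE8, a secreted ligand of the same integrins, by 0.43. Of 15 genes of integrin trafficking, 4 were higher, 4 were lower and 7 did not pass. Well counted were 9 of these, with 3 higher and 3 lower. RAB11A, a GTPase of the recycling endosome, rose by 1.17, GGA3, a sorting adaptor, by 0.55 and RAB4A, of the fast recycling route, by 0.41, and ACAP1, an ARF6 GTPase-activating protein, fell by 1.40. Across all 9 lists, 146 of 165 genes were tested, and 29 were higher, 43 were lower and 74 did not pass. The 75 well-counted ones split into 19 higher, 39 lower and 17 not past, with a median log2 fold change of -0.16. Over all well-counted genes, 32.5% were higher and 35.5% lower, with a median of -0.02. The counts and log2 fold changes of all lists are without the GC and length correction. The part of GC content in them was not tested. Against the trend over well-counted genes, BCAR1 rose at 64.9% GC and PAK2 fell at 39.96% GC. The SE of the called genes named from these lists ran from 0.03 to 0.25 on the log2 scale, apart from ITGA9, where it was 0.38.

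**Figure D4:**
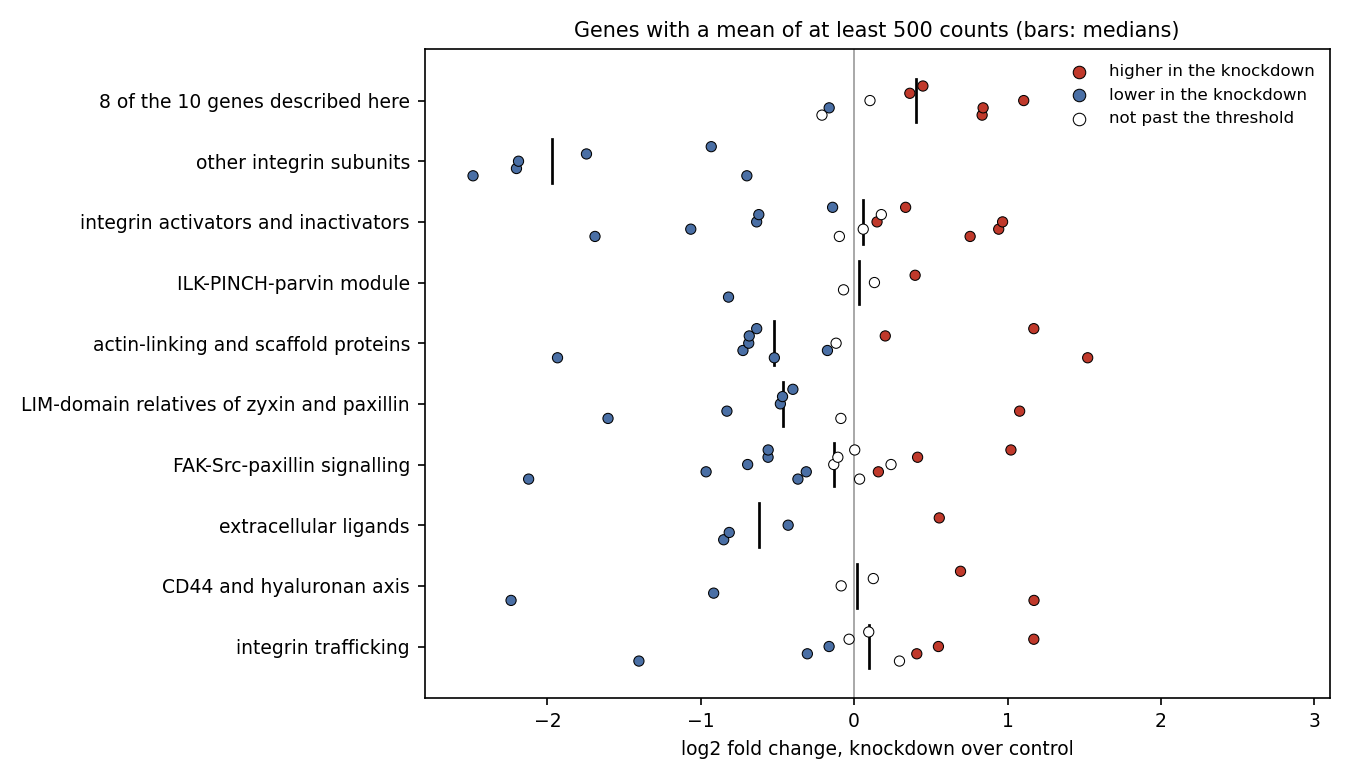
Log2 fold change of knockdown over control for well-counted genes, 1 point per gene, by list, with a bar at each list's median and colours for higher, lower and not past the threshold of 0.05 on the adjusted p. The 8 well-counted genes of the set have a median of 0.41, and the 6 other integrin subunits shown lie below 0 with a median of -1.97.

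The order of the 10 transcripts by length-scaled level differed between the groups at the top. In knockdown libraries CD44 and ITGA5 led with 253.3 and 246.1 CPM per kilobase, overlapping each other by library, followed by TLN1 at 154.6, ZYX at 92.2 and ILK at 61.9 CPM per kilobase. In control libraries TLN1 led with 173.2 CPM per kilobase, followed by ITGA5 at 137.4, CD44 at 117.8, ZYX at 85.9 and ILK at 48.1 CPM per kilobase. PXN, ITGB1 and PTK2 came next in both groups, at 18.1, 11.9 and 7.48 CPM per kilobase in knockdown libraries and at 10.2, 8.73 and 8.65 in control libraries, where ITGB1 overlapped both others and PXN lay above PTK2 in each library. ITGAV and ITGA6 were lowest, at 1.04 and 0.81 CPM per kilobase in knockdown libraries and 0.32 and 0.46 in control libraries.

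The genes whose pattern over the 6 libraries lay nearest to ITGB1 and to CD44 were looked up. Likeness was measured over 5030 genes as the root mean square difference of log2 CPM, each relative to its control mean. Nearest to CD44 were ANXA2, a membrane-binding annexin, at 0.0305, CD59, an inhibitor of complement, at 0.0367 and F2R, the thrombin receptor PAR1, at 0.0407. Nearest to ITGB1 were EFCAB14 at 0.0271, NAXD, an enzyme that repairs hydrated NAD(P)H, at 0.0664 and ZC3HAV1, an antiviral zinc finger protein, at 0.0671. With 6 libraries in 2 groups, the likeness includes the difference between the groups.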

How the data were processed

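RNA was measured in 6 poly(A)-selected libraries, grouped by their titles. The authors' deposited values are 1 table of raw counts, whole numbers for each gene and library. Per the submitters' processing notes, the tools were R 4.3.3, STAR, HTSeq, DESeq2, fastp and FastQC, with no roles given, on GRCh38 (hg38). No source used here gives aligner settings, the annotation release or the strand setting. Coordinates, lengths and overlaps are from GENCODE release 29 on GRCh38, whose release may differ from the one the authors counted on.

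Counts were fitted in edgeR 4.0.16 (R 4.3.3) over the whole table, with TMM scaling, filterByExpr at a minimum count of 10 and a robust quasi-likelihood F-test of knockdown against control with no block. P-values were adjusted by Benjamini-Hochberg over all 28303 genes tested, with a threshold of 0.05. The SE is the absolute log2 fold change over the square root of F. The lowest library had 18945176 counts. Genes averaging 500 counts or more (the well-counted genes) carry less counting error than those with fewer counts. An added number of up to 100 still weighs on the ones near 500. ITGA6, ITGAV and MELK are not well counted. The added number was modelled as an equal draw from 0, 1, 2, 10 and 100 on top of a negative binomial read count. Alternatives were other scalings (library size only, upper quartile, relative log expression), other filters (none, or well-counted genes only), DESeq2 1.42.0, limma-voom (limma 3.58.1), a dispersion estimate that is not robust, a replicate block, testing against a 1.5-fold change, a GC and length correction, and each library left out. The fits were also run on simulated data that held the same added number and the same dispersion for each gene. Those runs therefore cannot check these 2 assumptions.

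The 10 genes and the lists were chosen with earlier results of these data known. From each list the text names the up to 4 called, well-counted genes with the largest changes, and a set of direct partners whatever their values. ITGA2B, ITGA9, the overlapping genes and the markers named beside the results were added to that set after their values were seen.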

Additional observations from a re-analysis of the deposited data

How the results depend on the processing

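CD44, ITGA5 and PXN kept their direction and their side of the threshold in all 25 alternatives, and ILK in all but the test against a fold change of 1.5. That test called 3 of the 10 genes higher and 0 lower, and 13 and 18 genes of the adhesion lists higher and lower. Over all 28303 genes tested, it called 525 higher and 655 lower. With library size as the only scaling, 0 of the 10 genes were lower, beside 2073 of the 28303 genes tested. Modelling the added number put 52 list genes higher and 51 lower, with 9371 calls over all genes against 4683, and gave MELK -3.39. MELK was also past the threshold with no filter (-1.98, adjusted p 0.00961) and with limma-voom (-2.48, adjusted p 0.0468). The GC and length correction turned TLN1 to 0.014 (edgeR, adjusted p 0.655), and the cause was not tested. With each library left out, 4 to 5 of the 10 genes were higher and 0 to 1 lower (6 and 1 to 2 of the 8 well-counted ones), list genes numbered 19 to 22 higher and 38 to 43 lower (21 to 25 and 39 to 41 among well-counted genes), and MELK ran from -3.33 to -1.59. Those fits tested 40268 to 40434 genes and called 3591 to 3951 of them. On well-counted genes only, they called 3674 to 3814 of 5038.

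Same-numbered libraries deviated together with correlations of 0.0996, -0.0123 and -0.0801, against -0.0980 to 0.113 for differently numbered ones. With 3 libraries in each group, these values cannot tell whether same-numbered libraries shared more than a number. With the replicate block, 5 of the 10 genes were higher and 1 was lower, and 24 and 42 list genes were higher and lower. ITGAV was at 1.65 with an adjusted p of 0.109 (edgeR). Over all 28303 genes tested, that block gave 2062 higher and 2120 lower. A block in well-counted genes only, chosen after seeing the data, gave 6 higher and 1 lower of 8, beside 1949 higher and 1986 lower of 5038. MELK, ITGAV and ITGA6 have too few counts for that filter.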
